A study of Homo sapiens with 6 samples.

Results

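Keratin genes were examined in G401 cells by ChIP-seq for H3K27me3 and H3K4me3. Genes were taken as keratins when their symbol was KRT followed by a number and at most 1 of the letters A to C, and when they had at least 1 count in the input libraries (chromatin sequenced without an antibody). Of 56638 genes, 55 carried such a name, and 50 of them had input counts. KRT17, KRT23, KRT37, KRT39 and KRT81 were at 0 in all 6 libraries and could not be measured. G401 is an established malignant rhabdoid tumor line that lacks SMARCB1, a subunit of the SWI/SNF chromatin remodeling complex, and SMARCB1 had 0 counts in both input libraries. The cells received DMSO or 3 µM MAK683, which inhibits PRC2 by binding its subunit EED, for 3 days, and both treatments were given to the same SMARCB1-deficient line. Each treatment had 1 library per antibody and 1 input library, so differences between treatments had no check against replicates and p-values were not computed.

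Keratins are the intermediate filament proteins of epithelial cells, and each filament is built from a type I partner and a type II partner. Simple epithelial keratins such as KRT8 and KRT18 are made in single-layered epithelia, epidermal keratins such as KRT5, KRT14, KRT1 and KRT10 in stratified epithelia, and hair keratins in the follicle's root sheaths and in the hair shaft. H3K27me3 is the mark that PRC2 writes and is associated with repressed genes, and H3K4me3 is found around active or poised promoters. The type II genes lie in a cluster on chromosome 12 and the type I genes in a cluster on chromosome 17, except that the type I gene KRT18 lies at the end of the type II cluster, next to its partner KRT8.

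By the tissue in which they are best known, the 50 genes comprised 5 simple epithelial keratins (KRT7, KRT8, KRT18, KRT19 and KRT20), 19 keratins of epidermis and other stratified epithelia, 9 of the hair follicle's root sheaths and 14 of the hair shaft. KRT24, KRT80 and KRT222 were kept apart as 3 others. In all, 26 genes were on chromosome 12, from KRT80 (starting at 52562780 on hg19) to KRT18 (ending at 53346690), and 24 were on chromosome 17, from KRT222 (starting at 38810917) to KRT16 (ending at 39772151). A gene's value is the number of reads assigned to it, and the library totals ranged from 13308099 (MAK683 H3K27me3) to 21281877 (DMSO H3K4me3). At these depths a count of 0 allows up to 3 counts, or 0.141 to 0.225 CPM (counts scaled to the same library total). The median keratin had 78 counts in the DMSO input and 205.5 in DMSO H3K27me3. To compare genes of different length, counts were converted to CPM and divided by the input CPM of the same treatment, here called the level over input and given as log2. Each library is scaled to its own total, so a level shows how reads were spread over genes and not the amount of a mark per cell. Genes with under 100 counts in both inputs together were left out of the counts of genes and the medians. This left 45 keratins, and KRT10, KRT18, KRT38, KRT73 and KRT84 were left out. Intervals are exact 95% Clopper-Pearson intervals, and they cover counting error and not the variation between chromatin preparations.

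No simple epithelial keratin with enough input reached 2 times the input level of H3K27me3, although KRT20 came near it, whereas many epidermal and hair keratins did. In DMSO, H3K27me3 was at least 2 times input at 21 of 45 keratins (46.7%), against 10.7% of all 21263 genes with enough input and 11.1% of those with a span of 2 to 20 kb. These 21 were 9 of 18 epidermal, 5 of 8 root sheath and 7 of 12 hair shaft keratins, with 0 of 4 simple epithelial keratins and 0 of 3 others. The simple epithelial count was 1 at a threshold of 1.5 times input and with median-of-ratios size factors. The median log2 level over input was -0.41 for the simple epithelial, 1.12 for the epidermal, 1.11 for the root sheath and 1.05 for the hair shaft keratins. The median of all genes was -0.75. Of the 45 keratins, 33 had their whole interval above input and 13 had it above 2 times input. Only KRT80, KRT7, KRT8, KRT222 and KRT16 had it below input. The shares of all genes by these interval rules were not computed, so the interval counts have no background. Genes of one cluster share their neighborhood and are not independent, so these counts describe the clusters and were not tested.

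KRT8, the type II keratin of simple epithelia (chromosome 12, 53290971 to 53343738, minus strand), had 394 H3K27me3 counts over 682 input counts in DMSO and 302 over 875 in MAK683. Its log2 level over input was -0.98 in both treatments (interval in DMSO -1.16 to -0.80), below the median of all genes. KRT18, its type I partner (chromosome 12, 53342655 to 53346690, plus strand), had 23 H3K27me3 counts over 35 input counts in DMSO and 19 over 45 in MAK683. KRT18's level was -0.77 in DMSO (-1.62 to 0.01), an estimate that rests on few counts. The annotated span of KRT8 is 52.8 kb and covers the start of KRT18, whose unshared stretches in GENCODE begin at 53343739. Which part of KRT18 was counted is not known, and the level of KRT8 is an average over a long stretch. On these averages both genes of the pair were at or under the input level.

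KRT7, a type II keratin of glandular and ductal epithelia (chromosome 12, 52626304 to 52645970, plus strand), had 162 H3K27me3 counts over 194 input counts in DMSO and 106 over 219 in MAK683, or -0.44 and -0.49 over input. KRT19, a small type I keratin of simple epithelia (chromosome 17, 39679869 to 39684560, minus strand), had 51 over 58 in DMSO and 42 over 68 in MAK683, or -0.37 and -0.14. KRT20, a type I keratin of the intestinal lining (chromosome 17, 39032141 to 39041494, minus strand), had 248 over 122 in DMSO and 146 over 139 in MAK683, or 0.83 and 0.62. KRT20 was the only simple epithelial keratin with its interval above input in DMSO (0.52 to 1.16), and its neighbors in the cluster are KRT12, a keratin of the cornea, and KRT23, a simple epithelial keratin that could not be measured.

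Among the 18 epidermal keratins with enough input the highest levels were at KRT6A, KRT2 and KRT9. KRT6A, induced in wounded and hyperproliferative epidermis (chromosome 12, 52880960 to 52887041, minus strand), had 340 H3K27me3 counts over 59 input counts in DMSO and 176 over 90 in MAK683. Its log2 level was 2.32 (1.94 to 2.76) and 1.51. KRT2, a keratin of the upper epidermis (chromosome 12, 53038342 to 53045995, minus strand), had 380 over 72 in DMSO and 211 over 102 in MAK683, or 2.20 (1.85 to 2.60) and 1.59. KRT9, the keratin of palm and sole skin (chromosome 17, 39722088 to 39728311, minus strand), had 337 over 66 in DMSO and 130 over 98 in MAK683, or 2.15 (1.78 to 2.57) and 0.95. In the same class, KRT1 of the differentiating epidermis was at 2.00 in DMSO and KRT5 of its basal layer at 1.36.

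The low end of the epidermal class was held by KRT16, KRT15 and KRT79. KRT16, another wound-induced keratin, had 72 H3K27me3 counts over 91 input counts in DMSO and 54 over 116 in MAK683, or -0.52 (-0.99 to -0.06) and -0.55. KRT15, a basal layer keratin, had 103 over 117 and 84 over 168, or -0.37 and -0.44. KRT79, a type II keratin, had 190 over 172 and 118 over 207, or -0.04 and -0.26. KRT14, the basal partner of KRT5, was also low at 0.14, with 73 counts over 58 in DMSO and 49 over 55 in MAK683. The type II wound and basal keratins KRT6A and KRT5 were therefore more than 2 times input, and their type I partners KRT16 and KRT14, on the other chromosome, were not. KRT6A, KRT6B and KRT6C are near-identical copies, so reads could be split among them. KRT14, KRT16 and KRT17 are similar in sequence and were grouped with the near-identical copies wherever these were left out. KRT17 was at 0, as were KRT23, KRT37, KRT39 and KRT81, and the cause was not tested.

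Of the 9 root sheath keratins, the 8 with enough input ranged from 0.49 at KRT26 to 1.70 at KRT74 in DMSO, and KRT73, with 99 input counts, was higher at 2.22 (1.78 to 2.72) and had 252 H3K27me3 counts over 47 in DMSO and 152 over 52 in MAK683. Among the 8, KRT74, KRT75 and KRT71 were the highest, of which KRT74 and KRT71 belong to the inner root sheath and KRT75 to the companion layer. KRT74 had 506 H3K27me3 counts over 136 input counts in DMSO and 250 over 134 in MAK683 (log2 1.70 and 1.45), KRT75 had 279 over 78 and 124 over 91 (1.64 and 0.99), and KRT71 had 391 over 131 and 231 over 167 (1.39 and 1.02). The lowest were the inner root sheath keratins KRT26 (119 over 74 in DMSO, 113 over 92 in MAK683), KRT25 (182 over 101 and 141 over 125) and KRT72 (453 over 239 and 378 over 226). KRT72 went from 0.73 to 1.29 and, among the 45 keratins with enough input, was alone at 2 times input in MAK683 but not in DMSO.

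The 12 hair shaft keratins with enough input ranged from -0.18 at KRT35 to 1.64 at KRT31. KRT31, a type I keratin of the hair cortex (chromosome 17, 39549973 to 39553860, minus strand), had 236 H3K27me3 counts over 66 input counts in DMSO and 88 over 68 in MAK683, or 1.64 (1.25 to 2.07) and 0.91. KRT33B, another type I cortex keratin, had 218 over 75 and 142 over 104 (1.34 and 0.99), and KRT32, a keratin of the hair cuticle, had 274 over 99 and 212 over 111 (1.27 and 1.48). At the low end, KRT35 had 67 over 67 in DMSO and 40 over 57 in MAK683, the cuticle keratin KRT82 had 78 over 62 and 40 over 61, and KRT86 had 609 over 437 and 440 over 572. KRT33A and KRT33B share most of their sequence, as do KRT81, KRT83 and KRT86, and the annotated span of KRT86 also overlaps KRT7 and KRT81. KRT38, with 289 over 46 in DMSO and 172 over 46 in MAK683, had the highest level of all 50 keratins at 2.44 (2.01 to 2.95) and 2.43, although its 92 input counts kept it out of the medians.

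Along chromosome 12 the level changed with position. It was low at the first 2 genes, KRT80 (-0.80) and KRT7, near input at the hair shaft keratins KRT86 to KRT82 except for 1.07 at KRT83, and between 1.36 and 2.32 at every gene from KRT75 to KRT76 other than KRT72. It was lower again at KRT3 (0.89), KRT4 (0.84), KRT79 (-0.04) and KRT78 (0.55) and lowest at KRT8. The nearest measured gene before the cluster, C12orf44, was at -1.23, and EIF4B after it was at -2.27. On chromosome 17 it was -0.33 at KRT222, between 0.49 and 1.64 at the genes from KRT24 to KRT32 apart from KRT10 and KRT38, and -0.52 to 0.45 at KRT35 to KRT16 apart from KRT9. Both sides of KRT9 were low, with KRT19 at -0.37 and KRT14 at 0.14. The nearest genes outside were SMARCE1 at -1.07, counted on only 49 input reads in DMSO, and JUP, the desmosome protein plakoglobin, at -0.91.

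**Figure D1:**
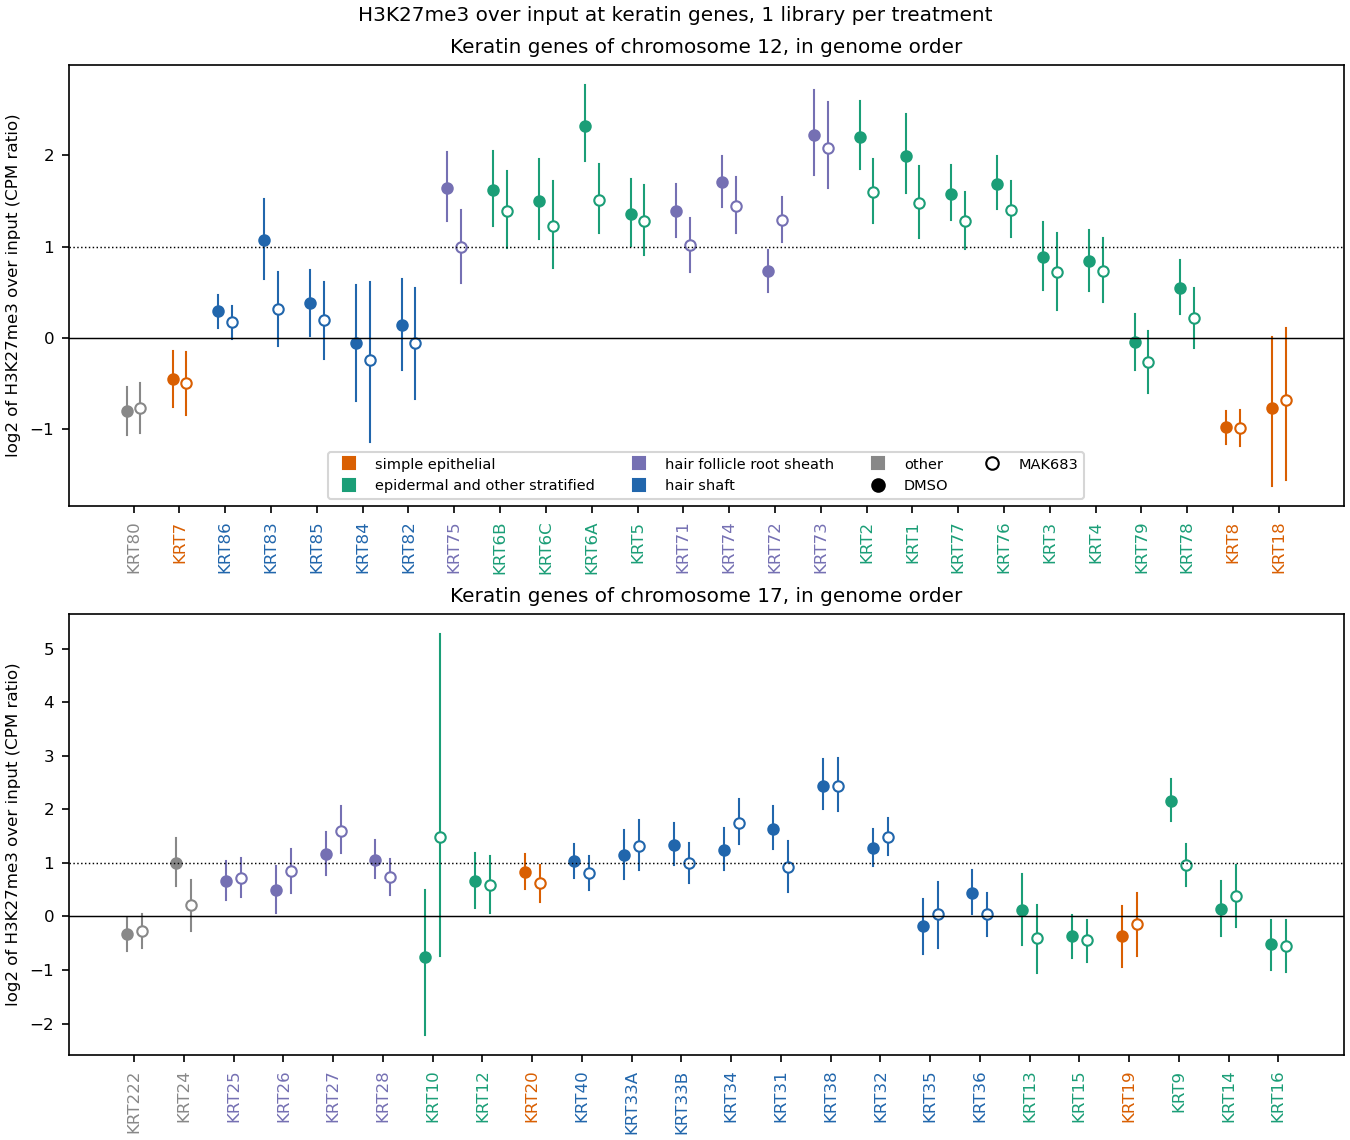
H3K27me3 over input (log2 of the CPM ratio, vertical axis) at the 50 keratin genes in genome order on chromosome 12 (top) and chromosome 17 (bottom), with DMSO as filled and MAK683 as open circles, names and points colored by class, lines for the exact 95% intervals (counting error only), and a dotted line at 2 times input. KRT6A, KRT73 and KRT2 stand above 2 in the middle of the chromosome 12 cluster and KRT8 is at -0.98 at its end, while KRT10 on chromosome 17 rests on 14 and 2 input counts.

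H3K4me3 stood above input at KRT8, KRT18 and KRT10. Of the 45 keratins with enough input, 1, KRT8, was at least 2 times input in DMSO, and the same gene alone was in MAK683. The share over all genes was 24.2% in DMSO and 22.6% in MAK683, and it was 51.6% in both treatments for genes with a span of 2 to 20 kb, the closer comparison because a promoter mark is diluted over a long gene and the median keratin spans 7.20 kb. The median log2 H3K4me3 level over input in DMSO was -1.01 for the simple epithelial, -0.51 for the epidermal, -1.08 for the root sheath and -1.03 for the hair shaft keratins, with -0.78 for all 45 and -0.25 for all genes. In 33 of the 45 the whole interval was below input. The share of all genes with such an interval was not computed, and the median of all genes was itself below input.

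KRT8 had 3074 H3K4me3 counts over 682 input counts in DMSO and 2867 over 875 in MAK683, or 1.83 (1.71 to 1.96) and 1.70 over input. KRT18 had 867 over 35 in DMSO and 974 over 45 in MAK683, or 4.26 (3.81 to 4.82) and 4.40, the highest H3K4me3 level of any simple epithelial keratin. The other simple epithelial keratins were at or below input in DMSO. At KRT7 111 H3K4me3 counts were found with DMSO and 137 with MAK683 (-1.14 and -0.68 over input), KRT19 had 39 and 70 (-0.89 and 0.03), and KRT20 had 65 and 58 (-1.23 and -1.26).

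KRT10, the type I partner of KRT1 in differentiating epidermis (chromosome 17, 38974369 to 38978866, minus strand), had 342 H3K4me3 counts over 14 input counts in DMSO and 280 over 2 in MAK683. Its level was 4.19 (3.51 to 5.16) in DMSO, and the ratio to 2 input counts in MAK683 was 6.55 (5.25 to 10.2). TMEM99 overlaps KRT10 on the opposite strand from 38975353, and in GENCODE the stretch of KRT10 shared with no other gene is the 984 bases from 38974369 to 38975352 at its 3′ end. TMEM99 itself had 89 H3K4me3 counts over 184 input counts in DMSO and 101 over 212 in MAK683, or -1.38 and -1.07 over input. Which part of either gene was counted is not known, because the annotation used for counting is not named and some genes without unshared bases in GENCODE, such as KRT80 with 709 input counts in all, were counted. The H3K4me3 reads of KRT10 could therefore not be placed within the gene. KRT10's H3K27me3 was 9 counts in DMSO and 5 in MAK683, too few to place it.

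**Figure D2:**
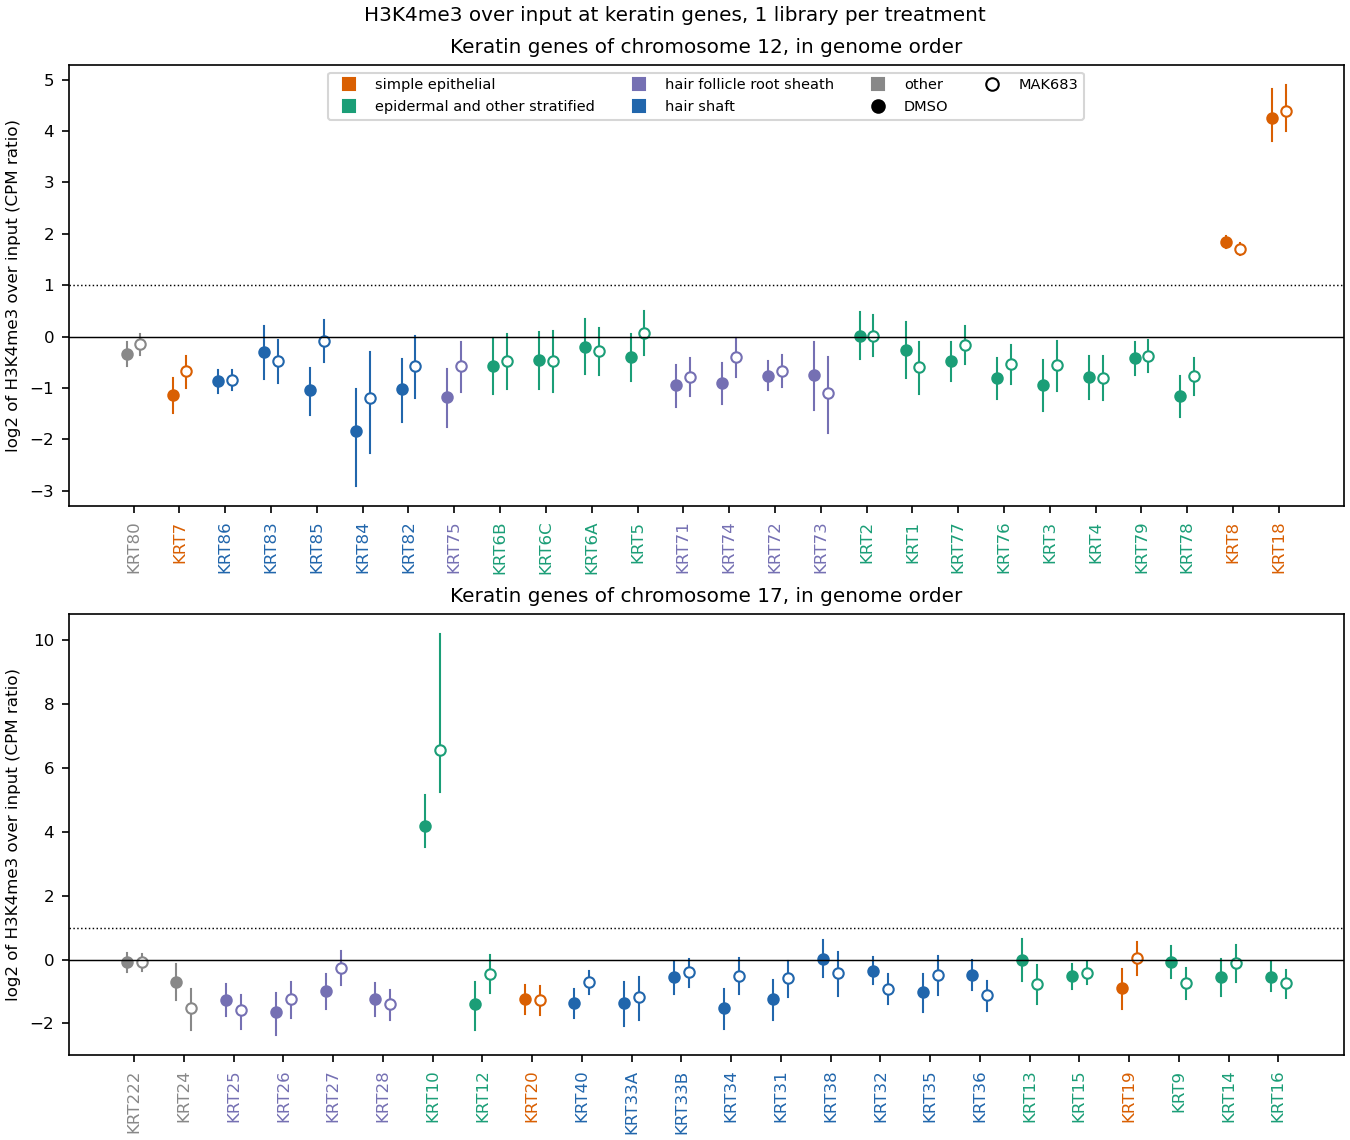
H3K4me3 over input (log2 of the CPM ratio, vertical axis) at the same 50 genes in genome order on chromosome 12 (top) and chromosome 17 (bottom), with DMSO filled, MAK683 open, exact 95% intervals as lines (counting error only) and a dotted line at 2 times input. KRT8 (1.83 in DMSO) and KRT18 (4.26) at the end of chromosome 12 and KRT10 (4.19) on chromosome 17 stand above the dotted line, and all other genes are below it.

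**Figure D3:**
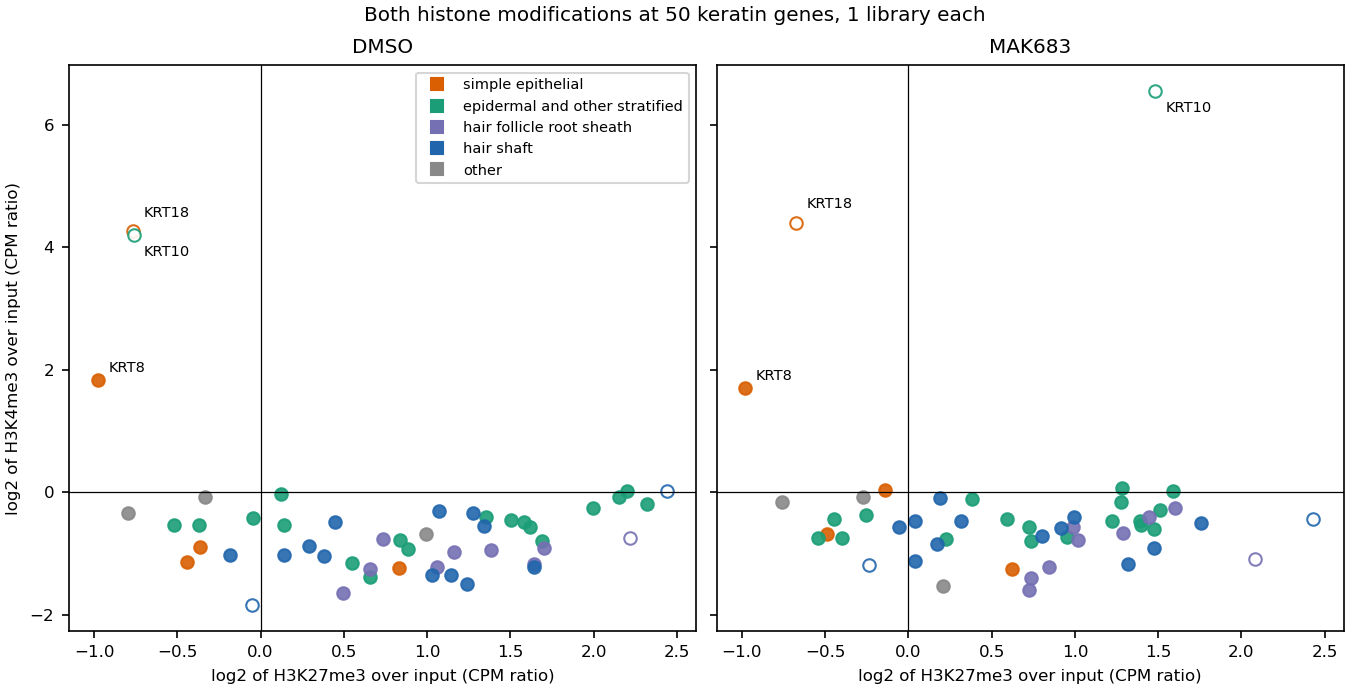
H3K27me3 over input (horizontal axis) against H3K4me3 over input (vertical axis), both log2 of the CPM ratio, in DMSO (left) and MAK683 (right), with 1 point per keratin gene colored by class and open for the 5 genes with under 100 input counts. KRT8 and KRT18 lie at the upper left in both treatments, most other keratins lie below 0 for H3K4me3, and the MAK683 point of KRT10 rests on 2 input counts.

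Promoter sequences were compared because H3K4me3 was below input at most keratins and in other genes is strongest at promoters rich in CpG dinucleotides. RefSeq windows on GRCh38.p14 from 250 bases before to 50 after the start were matched for 32 of the 50 keratins. Each of the 32 was found exactly 1 time on its own chromosome and strand of GRCh37, the build of the counts. Other chromosomes were not searched. The keratin windows held a median of 2 CpG dinucleotides (range 0 to 8), against 14 over 35116 windows of all genes, and all 32 were under that median. The windows of KRT8 and KRT10, genes where H3K4me3 stood above input, held 2 and 1. Counts are per gene, so the H3K4me3 reads of these genes could not be placed at these windows. KRT7, KRT18 and KRT19 had no window. Whether CpG number goes with H3K4me3 among keratins was not tested. Their median GC content was 45.8%, against 58.7%. The letters TATAAA, searched on both strands, were in 18 of the 32 (56.2%) against 11.5% of all windows. GGGCGG was in 5 (15.6%) against 45.0%, and TGANTCA was in 0 against 7.71%. A match or its absence describes these letters in this window and not a binding site.

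The windows of 4 keratins are shown as the highest and the lowest H3K27me3 level in DMSO on each chromosome, among those with a window and enough input. All are on the minus strand and are written 5′ to 3′, with CG and TATAAA in capitals, and coordinates are on GRCh37. KRT2 (chr12:53045946-53046245) and KRT9 (chr17:39728262-39728561) were the highest, and KRT8 (chr12:53320204-53320503) and KRT35 (chr17:39637354-39637653) the lowest.
KRT2: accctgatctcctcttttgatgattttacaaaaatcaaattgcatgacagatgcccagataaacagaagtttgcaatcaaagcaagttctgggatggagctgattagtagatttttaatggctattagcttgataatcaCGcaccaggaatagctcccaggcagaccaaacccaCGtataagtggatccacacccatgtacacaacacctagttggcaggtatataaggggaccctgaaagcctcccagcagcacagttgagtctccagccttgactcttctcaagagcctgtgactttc
KRT9: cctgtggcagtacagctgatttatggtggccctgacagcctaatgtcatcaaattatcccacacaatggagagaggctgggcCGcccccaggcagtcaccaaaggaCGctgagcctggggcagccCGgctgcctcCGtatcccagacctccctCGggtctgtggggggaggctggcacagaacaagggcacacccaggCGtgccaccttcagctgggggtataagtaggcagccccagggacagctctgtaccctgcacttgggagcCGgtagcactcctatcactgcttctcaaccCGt
KRT8: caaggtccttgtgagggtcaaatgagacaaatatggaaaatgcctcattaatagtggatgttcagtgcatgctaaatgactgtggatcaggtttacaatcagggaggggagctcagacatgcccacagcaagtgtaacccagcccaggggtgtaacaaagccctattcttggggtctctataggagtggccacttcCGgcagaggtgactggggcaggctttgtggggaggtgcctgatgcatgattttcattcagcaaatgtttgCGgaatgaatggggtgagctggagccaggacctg
KRT35: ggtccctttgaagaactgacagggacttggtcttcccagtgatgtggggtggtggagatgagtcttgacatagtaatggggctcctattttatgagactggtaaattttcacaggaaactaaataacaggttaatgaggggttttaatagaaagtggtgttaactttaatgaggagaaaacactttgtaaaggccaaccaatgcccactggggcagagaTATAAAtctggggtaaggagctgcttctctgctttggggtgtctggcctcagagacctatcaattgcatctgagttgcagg
KRT9 held 8 CG dinucleotides, KRT2 and KRT8 held 2 each, and KRT35 held 0 and was the only one of the 4 with TATAAA. The window of KRT8 lies within the annotated span of the gene, at 1 of several starts listed for it, so it need not be the start where H3K4me3 was found.

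The effect of MAK683 was examined next as the share of a gene's counts from both treatments that was found in MAK683. For H3K27me3 the library totals gave 41.0%, and a gene whose whole interval was below it had a smaller part of its counts in MAK683 than the library as a whole. At all 49 keratins with at least 10 H3K27me3 counts in 1 of the libraries, counts were lower in MAK683 than in DMSO. The MAK683 library was also smaller, at 13308099 counts against 19162778, and the median log2 count ratio of all genes was -0.44. Lower counts are therefore not particular to keratins. Relative to that median, the log2 count ratio was below 0 at 35 keratins and above 0 at 14, with a median of -0.22. The class medians were 0.058 for the simple epithelial, -0.28 for the epidermal, -0.11 for the root sheath and -0.20 for the hair shaft keratins. The counts carry no spike-in scaling, so these values show the distribution of reads over genes and not the amount of H3K27me3 per cell. With the library totals in place of the median of all genes, the overall median was -0.14 and the simple epithelial median 0.14.

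The interval was below the library share at 12 keratins, of which 7 were epidermal (KRT2, KRT6A, KRT6C, KRT9, KRT76, KRT77 and KRT78), 2 root sheath (KRT74 and KRT75), 2 hair shaft (KRT31 and KRT85) and 1 outside these classes (KRT24). It was above at 2, KRT26 and KRT72, both of the root sheath, and at 0 simple epithelial keratins on either side. Over all 29931 genes the interval was below at 13.6% and above at 22.7%. KRT31 went from 236 to 88 counts, a share of 27.2% (22.4 to 32.4), and KRT9 from 337 to 130, a share of 27.8% (23.8 to 32.1). KRT75 went from 279 to 124 counts, or 30.8% (26.3 to 35.5). KRT84, whose interval held the library share, went from 46 to 19, or 29.2% (18.6 to 41.8). KRT6A had 34.1% (30.0 to 38.4) and KRT2 had 35.7% (31.8 to 39.7). At the other end, KRT26 went from 119 to 113, a share of 48.7% (42.1 to 55.3), and KRT72 from 453 to 378, a share of 45.5% (42.1 to 48.9).

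No keratin was 2-fold lower or higher relative to all genes, against 3.55% and 3.32% of all genes, and the nearest were KRT31 at -0.97 and KRT9 at -0.93 on the log2 scale. Summed over each class, the share in MAK683 was 41.2% (38.7 to 43.7) for the simple epithelial, 36.2% (35.0 to 37.4) for the epidermal, and 39.3% for both the root sheath (37.8 to 40.7) and the hair shaft keratins (37.9 to 40.7). These sums cover counting error only and are weighted to genes with many counts, and single epidermal keratins ranged from 27.8% at KRT9 to 44.9% at KRT15.

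The highest H3K27me3 levels in MAK683 were again at epidermal and hair keratins. These levels are relative to the library total and do not show how much H3K27me3 the genes kept. The authors, whose methods include spike-in scaling, reported a massive loss of H3K27me3 across the genome in G401 cells given MAK683. At least 2 times input was found at 15 of 45 keratins in MAK683, against 6.71% of all genes, and these were 8 epidermal, 4 root sheath and 3 hair shaft keratins. The 7 hair keratins (root sheath and shaft) became 12 with median-of-ratios size factors and 14 at 1.5 times input, and the 8 epidermal keratins became 5 without near-identical copies. Of the 45, 14 passed in both treatments, 7 in DMSO only and 1 in MAK683 only. The 7 were KRT9, KRT28, KRT31, KRT33B, KRT40, KRT75 and KRT83. KRT33B (0.99), KRT75 (0.99) and KRT9 (0.95) lay just under the threshold of 1 in MAK683. The class medians in MAK683 were -0.32 for the simple epithelial, 0.84 for the epidermal, 1.0035 for the root sheath and 0.56 for the hair shaft keratins, while the median of all genes was -0.56. The level over input was lower in MAK683 than in DMSO at 33 of the 45, and the share of all genes with a lower level was not computed.

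For H3K4me3 the library share in MAK683 was 48.0%, and the keratins together had 50.2% (49.4 to 51.0). The interval was above the library share at 9 of 50 keratins, against 19.5% of all 30028 genes tested. They were the simple epithelial KRT7, KRT18 and KRT19, with KRT12, KRT15, KRT40, KRT75, KRT80 and KRT85. It was below at 2, the hair shaft keratins KRT32 and KRT38, against 21.3%. Relative to the median of all genes, the log2 ratio lay above 0 at 36 and below 0 at 14, with a median of 0.20, and no keratin was 2-fold lower or higher (1.84% and 4.19% of all genes). KRT18 went from 867 to 974 counts, a share of 52.9% (50.6 to 55.2), while KRT8 went from 3074 to 2867, a share of 48.3% whose interval (47.0 to 49.5) held the library share. KRT19 went from 39 to 70 counts, a share of 64.2% (54.5 to 73.2), and KRT7 from 111 to 137, or 55.2% (48.8 to 61.5).

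Among keratins whose H3K4me3 counts averaged at least 50, the increases after KRT19 (0.94 on the log2 scale relative to all genes) were at KRT40 (0.81), KRT85 (0.75), KRT75 (0.61) and KRT83 (0.44). KRT40, a hair shaft keratin, went from 60 to 98 counts and KRT85 from 66 to 103. The largest decreases were at KRT32 (-0.61, from 98 to 59 counts), KRT9 (-0.30, from 79 to 59), KRT36 (-0.21), KRT72 (-0.20) and KRT10 (-0.17). Apart from KRT8, KRT18 and KRT10, all of these genes remained under 2 times input for H3K4me3 in MAK683. KRT9 and KRT31, which had the lowest H3K27me3 shares in MAK683, had H3K4me3 levels over input of -0.08 and -1.23 in DMSO and -0.73 and -0.59 in MAK683.

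**Figure D4:**
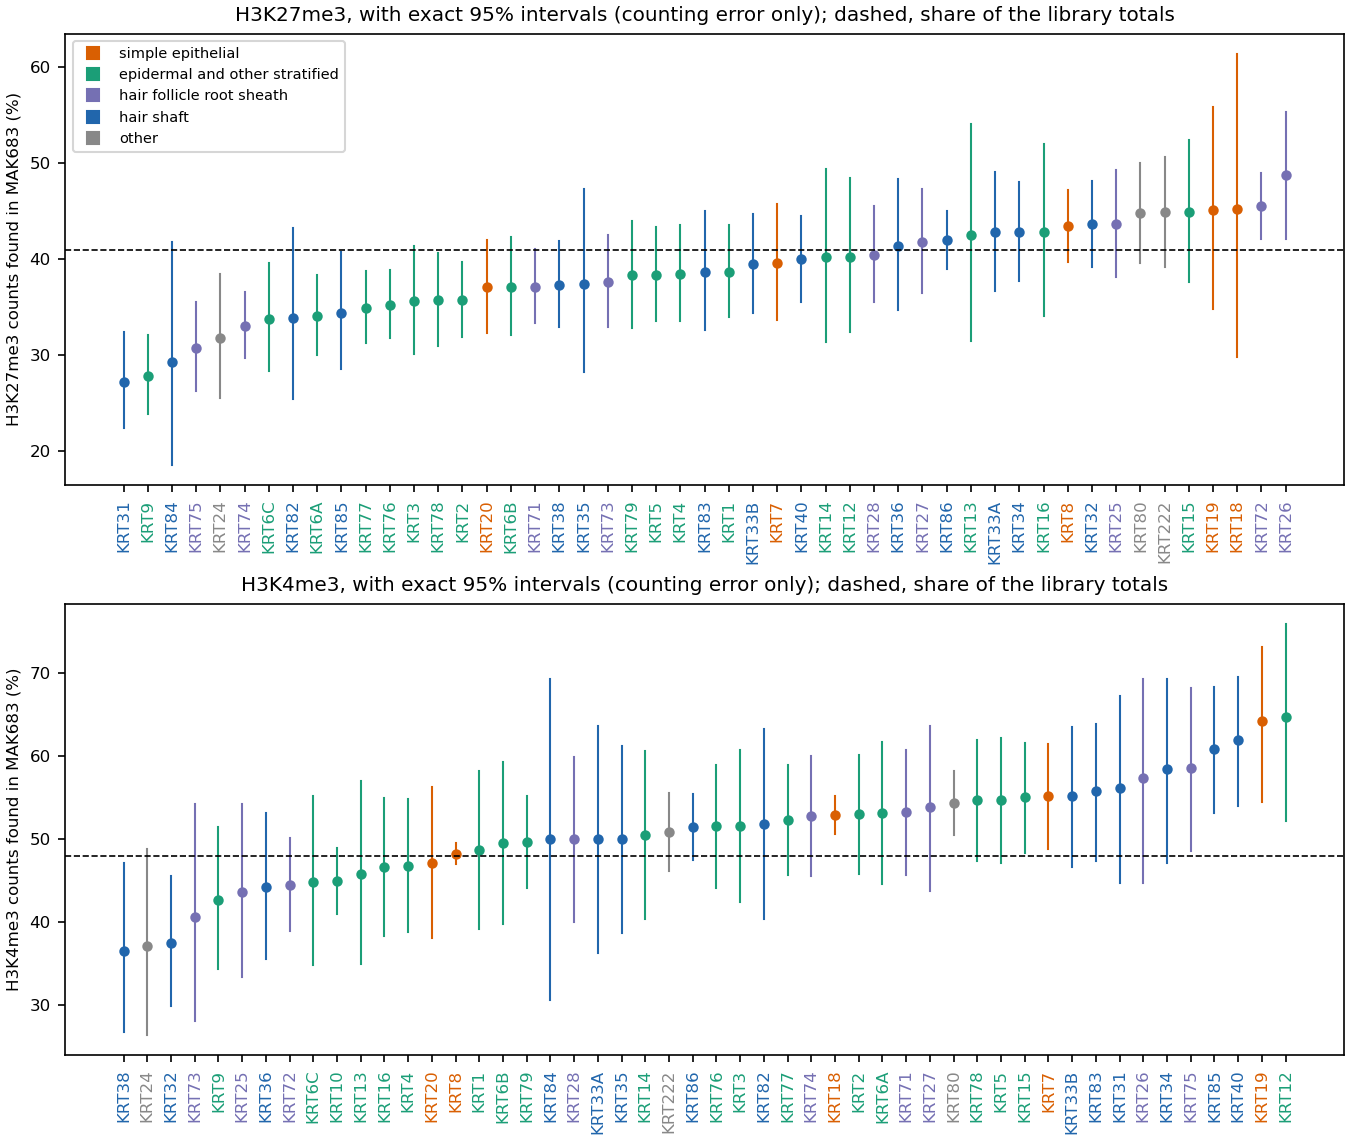
Share of each keratin's H3K27me3 counts (top) and H3K4me3 counts (bottom) found in MAK683 out of both treatments, in percent, sorted, with exact 95% intervals and the share of the library totals as a dashed line (41.0% and 48.0%). KRT31 (27.2%) and KRT9 (27.8%) are lowest for H3K27me3 and KRT26 (48.7%) is highest, and KRT8 (48.3%) has the narrowest interval for H3K4me3.

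Other intermediate filament genes and genes of desmosomes and the cornified envelope gave a mixed picture. Of 15 other intermediate filament genes with enough input, 2 were at least 2 times input for H3K27me3 in DMSO, against 10.7% of all genes. They were the neurofilament genes NEFM (2.15) and NEFL (2.01), and the next was the neuronal filament gene INA at -0.05. H3K4me3 in DMSO was at least 2 times input at 9 of the 15, against 24.2% of all genes and 51.6% of those with a span of 2 to 20 kb. The 15 genes spanned 5.34 to 75.3 kb, so neither share is matched to them in span. Among the 9 was VIM, the filament gene of mesenchymal cells, at 2.91 with H3K27me3 at -1.64. For VIM, 908 H3K4me3 counts were found with DMSO and 742 with MAK683. Of 17 desmosome and cornified envelope genes with enough input, 3 passed for H3K27me3 in DMSO, against 10.7% of all genes. These were IVL, an envelope precursor, at 1.63, TGM3, a transglutaminase that crosslinks the envelope, at 1.30, and DSG2, a desmosomal cadherin, at 1.10. The envelope genes LOR (279 H3K27me3 counts over 20 input counts in DMSO, 127 over 29 in MAK683) and SPRR1A (83 over 18, 41 over 28) had too little input for this count and were at 3.56 and 1.97. LOR also went from 159 to 327 H3K4me3 counts. DSP, the desmosome protein that anchors keratin filaments, was at -0.87 for H3K27me3 and 1.69 for H3K4me3.

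Of 17 epithelial transcription factor and junction genes with enough input, 5 passed for H3K27me3 in DMSO, against 10.7% of all genes. The 5 were TFAP2C (3.17), KLF4 (2.95), EHF (1.38), KLF5 (1.28) and TP63 (1.06). TP63, the regulator of stratified epithelia, had 7575 H3K27me3 counts over 3197 input counts in DMSO and 4567 over 3583 in MAK683. TFAP2C went from 941 to 398 H3K27me3 counts, a share in MAK683 of 29.7% (27.3 to 32.2), and from 245 to 749 H3K4me3 counts. KLF4, a factor of epidermal differentiation, went from 550 to 259 H3K27me3 counts and was 2.67 over input for H3K4me3 in DMSO and 2.99 in MAK683. TFAP2C was 1.08 and KLF5 was 1.13 over input for H3K4me3 in DMSO. TFAP2C, KLF4 and KLF5 were thus at least 2 times input for H3K27me3 and for H3K4me3. TP63 and EHF were below input for H3K4me3 in DMSO, at -1.09 and -0.76. KRT6A, KRT2 and KRT9 had H3K4me3 levels of -0.20, 0.02 and -0.08.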

How the data were processed

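ChIP-seq of G401 cells with 1 library per treatment and antibody was used. The authors trimmed reads with Trim Galore 0.4.4 and aligned them to hg19 with Bowtie2. With Picard 2.23.6 they removed what they term repeat sequences, and their spike-in step speaks of removing duplicates. They deposited whole-number read counts per gene from featureCounts. Spike-in scaling is not in these counts, and the annotation used for counting is not given in the sources used here. GENCODE release 44 on GRCh37, the same build, supplied coordinates. CPM used the column totals. Levels over input added 0.05 CPM, and log2 count ratios added 1 count and subtracted their median over genes reaching 10 counts in either library. Intervals came from scipy 1.17.1 under Python 3.11.15 with pandas 2.3.3 and numpy 2.4.6, figures from matplotlib 3.10.9, and the computation was tested on simulated data. Genes named were all simple epithelial keratins, the 3 highest and 3 lowest of each other class, the 3 highest of each other list by H3K27me3 over input in DMSO, and the 5 keratins with the largest H3K4me3 increase and the 5 with the largest decrease. KRT1, KRT3, KRT4, KRT5, KRT14, KRT38, KRT73, VIM, DSP and genes listed by name beside a count were chosen after their values were seen. The keratins and all lists were chosen with earlier results of these data known. Alternatives were other pseudocounts, minimums, thresholds, scales, inputs and backgrounds, and leaving out KRT23, near-identical copies, or KRT8 and KRT10. The last of these, and the share at the median gene as the reference, were added after seeing the data.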

Additional observations from a re-analysis of the deposited data

How the results depend on the processing

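Of 104 recomputed values that answer a comparison, 89 kept their direction and stayed within 1.5 times or the spread used, 15 moved and 0 changed direction. KRT23 had no counts and was not among the keratins measured, so leaving it out could not change any value. Its values are among the 89 and say nothing about stability. With median-of-ratios size factors, which add 0.43 (log2) to H3K27me3 over input in DMSO at every gene, the keratin median was 1.31 in place of 0.89, and that of the simple epithelial keratins was 0.020 in place of -0.41. At 1.5 times input, 27 keratins passed for H3K27me3 in MAK683 in place of 15. With counts as deposited, the keratin H3K27me3 change was -0.66, the interval was below even shares at 41 keratins and above at 0, the simple epithelial median change was -0.38, the H3K4me3 change was 0.090 and the H3K4me3 interval was below at 5. With the share at the median gene as reference the H3K27me3 interval was above at 0. The simple epithelial H3K27me3 change also turned from 0.058 to -0.0045 when divided by input, -0.049 with at least 50 counts and -0.00015 without KRT8 and KRT10, so it had no stable sign. For H3K4me3, 3 keratins passed with at least 10 input counts (KRT8, KRT18 and KRT10) and 0 without KRT8 and KRT10, in both treatments, and the former gave a simple epithelial median of 0.033 in MAK683. A pseudocount of 1 CPM gave a keratin H3K4me3 median of -0.45 in MAK683 in place of -0.56, and among genes of 2 to 20 kb 51.6% passed for H3K4me3 in each treatment. Of 228 class values, 18 moved and 6 reversed, the latter all given above. No paired analysis was possible because each treatment had 1 library per antibody, which also left no replicate to leave out. Input counts under 100 limited KRT10, KRT18, KRT38, KRT73 and KRT84, and why these counts were low was not tested.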
